A study of Mus musculus with 9 samples.

Results

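A set of 10 genes of the Notch pathway was followed through sorted mouse neural progenitors: the receptors Notch1, Notch2 and Notch3, the ligands Dll1, Dll3 and Jag1, and the effectors Hes1, Hes5, Hey1 and Hey2. The genes were chosen by name, with earlier results of these data known, and all 10 were found among the 18329 rows of the expression table. The cells were labelled as neuroglial progenitors of the TVZ, the ventricular zone of the third ventricle, where dividing cells line the cavity. The mice were Nestin-CFPnuc animals on a C57/BL6 background, untreated and at postnatal day 1, in which the Nestin promoter drives a cyan fluorescent protein in nuclei. Flow sorting on the fluorescent protein and on CD133, a surface protein encoded by Prom1, gave CD133+Nestin+, Nestin+ and CD133+ cells, with 3 libraries in each of the 3 groups. Genotype, background, age and lack of treatment were shared by all 9 libraries, and none of their labels names an Nf1 mutation. The labels do not say whether cells sorted on 1 marker lacked the other, nor whether the 3 libraries of a group came from separate animals. The p-values therefore measure the spread between these libraries, which may be technical. Nestin+ here means that the Nestin promoter was active in the reporter, not that the protein was seen.

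Notch receptors are cut inside the membrane when a Delta or Jagged ligand on a neighbouring cell binds them, and the released intracellular part joins the DNA-binding protein RBPJ to switch on target genes. Among these targets are the Hes and Hey repressors, which hold down proneural genes and so keep neural progenitors from differentiating. In the developing brain radial glia carry Notch receptors and Hes genes, while Delta ligands are displayed by cells that begin to differentiate, and in vessels the same pathway governs sprouting.

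Of the 10 genes only the effectors Hes5 and Hey2 were called, and the effectors Hes1 and Hey1 were not. Hes5 and Hey2 were higher in Nestin+ than in CD133+ cells, by a log2 change of 3.01 ± 0.81 (SE) for Hes5 and of 0.88 ± 0.25 (SE) for Hey2. These were 2 of the 9 members tested, against 2.45% of all 16143 genes tested that were called higher in that comparison. Because the members were listed with earlier results of these data known, such shares are a description and not a test. With the sort number added as a block the members called were the same 2, against 6.06% of all genes higher. No member was called lower, against 9.42% of all genes. In limma 5 of the 9 members had an unadjusted p under 0.05, all of them higher in Nestin+ cells, against 23.0% of all genes in either direction. Between CD133+Nestin+ and CD133+ cells 0 members were called by limma, 2 (Hes5 and Hey2) had an unadjusted p under 0.05 (12.6% of all genes did), and 0.297% and 2.12% of all genes were called higher and lower (1.12% and 3.69% with the block, again with 0 members). Between CD133+Nestin+ and Nestin+ cells 0 members were called and 0 had an unadjusted p under 0.05 (13.2% of all genes did), against 2.87% of all genes called higher and 0.254% called lower (4.97% and 1.12% with the block). A gene was called at a Benjamini-Hochberg adjusted p under 0.05 over all genes, and fold changes were computed from log2(CPM + 1), so that those of low genes come out too small. In the authors' deposited table Hes5 and Hey2 were likewise the 2 members with a false discovery rate under 0.05, at 0.0498 and 0.0430 for Nestin+ against CD133+ cells, and 0 members passed in the other 2 comparisons. In bulk libraries such as these, fewer cells of a type and less RNA per cell cannot be told apart.

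**Figure D1:**
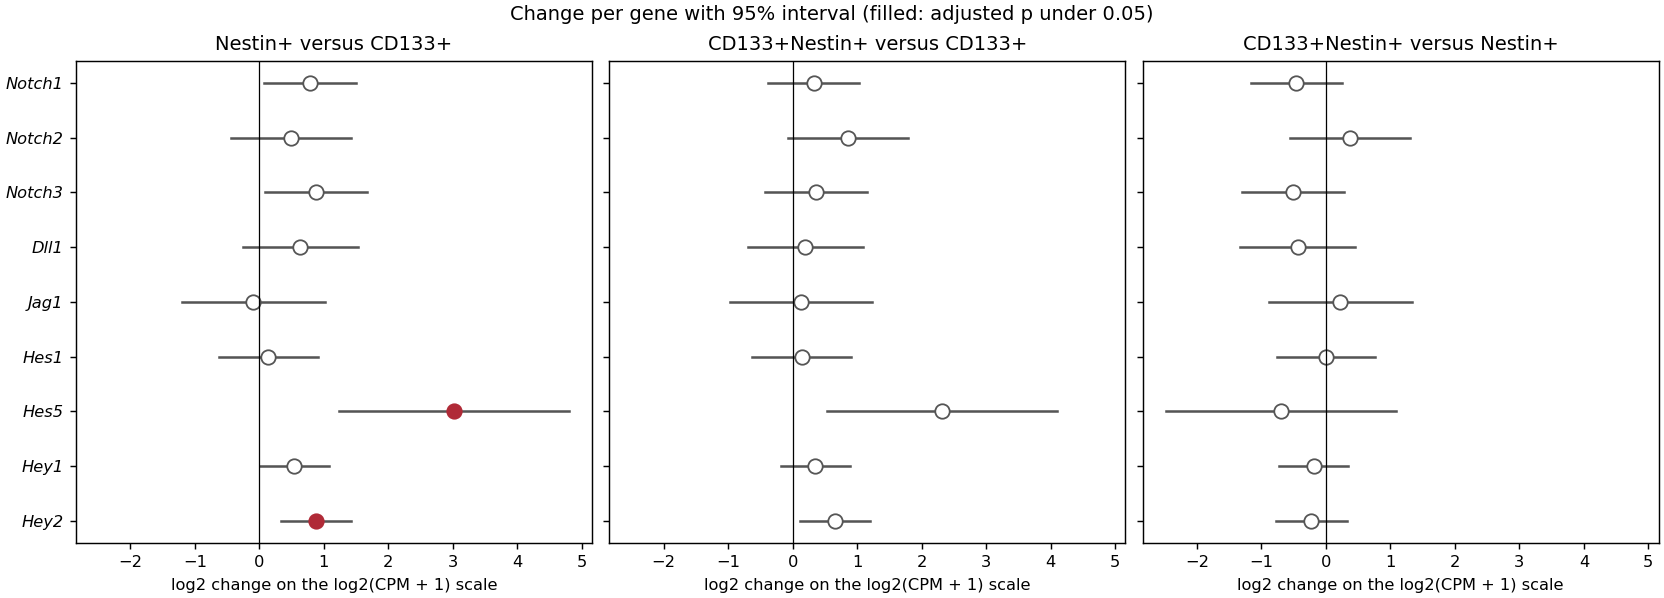
Log2 change of the 9 members tested (rows) in each comparison (panels), on the log2(CPM + 1) scale, with the 95% confidence interval from limma as a line and filled points for an adjusted p under 0.05. Hes5 at 3.01 and Hey2 at 0.88 in Nestin+ versus CD133+ cells are the filled points, and the Hes5 intervals are the widest.

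Values are in CPM (reads per library total, scaled alike in every library), which was deduced from the spacing of the low values. A single read was worth 0.0286 to 0.0344 CPM, and 3 reads came to 0.0857 to 0.103 CPM (counting error only). CD133+Nestin+ replicate 2 stood apart: it correlated with the other libraries at 0.802 to 0.896, against 0.825 to 0.966 among the other 8, and it had the lowest share of its total in listed genes (65.9%). The sort markers followed the labels. Nes was at 172 to 212 CPM in CD133+Nestin+ cells and 157 to 195 CPM in Nestin+ cells, against 39.5 to 57.3 CPM in CD133+ cells, and Prom1 was at 116 to 181 CPM in CD133+Nestin+ cells, 39.3 to 58.1 CPM in Nestin+ cells and 146 to 182 CPM in CD133+ cells. The libraries are numbered by sort, 1 to 3, and libraries of the same number deviated together. The labels also give each library a passage number equal to its sort number, without saying whether cells were cultured, so sort and passage cannot be told apart. The log2 changes of all genes had medians of -0.02, -0.06 and -0.04 in the 3 comparisons in the order above. Median centring moved the first 2 medians by 0.13 and 0.13 and quantile normalization moved them by 0.15 and 0.12, and the genes called between Nestin+ and CD133+ cells then split into 587 higher and 1300 lower, or 696 higher and 1370 lower, in place of 395 higher and 1520 lower.

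Hes5 and Hey2 are basic helix-loop-helix repressors, Hes5 a target of Notch in neural progenitors and Hey2 a target first known from the heart and vessels. Since they are the members called, their promoters are printed here, each 300 bases from 250 before to 50 after the annotated start, from RefSeq on GRCm38.p6 and read 5′ to 3′ on the strand of the gene. Capitals mark the RBPJ core GTGGGAA or its reverse complement TTCCCAC. Hes5 lies at chr4:154960673-154960972 on the plus strand and Hey2 at chr10:30842734-30843033 on the minus strand.
Hes5: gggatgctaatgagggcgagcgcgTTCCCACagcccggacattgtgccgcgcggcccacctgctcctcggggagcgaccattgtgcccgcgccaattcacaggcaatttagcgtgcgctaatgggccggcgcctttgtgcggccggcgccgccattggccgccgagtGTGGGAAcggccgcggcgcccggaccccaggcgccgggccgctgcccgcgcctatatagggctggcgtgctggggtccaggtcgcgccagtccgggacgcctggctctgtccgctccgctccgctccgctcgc
Hey2: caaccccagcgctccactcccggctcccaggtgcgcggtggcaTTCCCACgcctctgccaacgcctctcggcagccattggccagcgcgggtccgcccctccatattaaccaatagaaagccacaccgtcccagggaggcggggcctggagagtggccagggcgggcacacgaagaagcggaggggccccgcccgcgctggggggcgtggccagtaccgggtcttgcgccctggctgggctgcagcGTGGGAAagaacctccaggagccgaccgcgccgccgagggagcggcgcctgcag
Each promoter held the core once on either strand. In Hes5 the matches ran from -226 to -220 (minus strand) and from -83 to -77 (plus strand), counted from the start with 1 as its first base. In Hey2 they ran from -207 to -201 (minus strand) and from -4 to 3 (plus strand). Over all 32851 promoters of the same length 6.38% held at least 1 match, 0.256% held 2 or more, and 33 promoters, 0.101%, held the core on both strands.

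RefSeq promoters were matched for 8 of the 10 members in 9 entries, Dll1 having 2, and Hes1 and Hey1 were not among them. The other 6 members held no RBPJ core in these windows. The N-box CACNAG, searched on both strands as a sequence bound by Hes repressors, was present in 42.5% of all promoters and occurred 3 times in Notch1, where 2 of the matches overlap each other. It occurred 2 times in Notch3, 1 time in Notch2 and 1 time in 1 of the entries of Dll1, and not in Hes5, Hey2, Jag1 or Dll3. The E-box CACGTG, present in 7.15% of promoters, was in none of the entries. A match is a string of letters and not a measured binding site.

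Hes5 was at 18.6, 61.4 and 125 CPM in the CD133+Nestin+ libraries of sorts 1, 2 and 3, at 41.8, 53.2 and 284 CPM in the Nestin+ libraries, and at 16.3, 3.94 and 13.7 CPM in the CD133+ libraries. Both reporter-positive groups lay above every CD133+ library, by little in CD133+Nestin+ sort 1, and they overlapped each other. The group means were 68.4 ± 53.5 CPM in CD133+Nestin+, 126 ± 137 CPM in Nestin+ and 11.3 ± 6.50 CPM in CD133+ cells (SD, n = 3 each). Within sorts 1, 2 and 3 the ratio of Nestin+ to CD133+ cells was 2.57, 13.5 and 20.8, so that Hes5 was higher in 3 of 3 sorts but by very different amounts. The log2 change of 3.01 had a 95% interval of 1.24 to 4.79 and an adjusted p of 0.0332 in limma, and 0.00554 with the sort number as a block. When single libraries were dropped the call was kept in 5 of 9 fits. The adjusted p was 0.0634 without Nestin+ replicate 2, 0.123 without Nestin+ replicate 3, 0.167 without CD133+ replicate 2 and 0.0655 without CD133+ replicate 3. The log2 change was 2.16 without Nestin+ replicate 3 and 2.45 without CD133+ replicate 2. For CD133+Nestin+ against CD133+ cells it was 2.32 ± 0.81 (SE, 95% interval 0.54 to 4.09), with an adjusted p of 0.229, or 0.0537 with the block, and it was 2.21 without CD133+Nestin+ replicate 2. In the fits without 1 library the log2 change ran from 1.70 without CD133+Nestin+ replicate 3 and 1.75 without CD133+ replicate 2 to 3.04 without CD133+Nestin+ replicate 1, and none of these was called. The ratio of CD133+Nestin+ to CD133+ cells was 1.15 in sort 1, 15.6 in sort 2 and 9.14 in sort 3. For CD133+Nestin+ against Nestin+ cells the log2 change was -0.70 ± 0.81 (SE), with an interval from -2.48 to 1.08 that includes changes in either direction.

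Hey2 varied far less between sorts. It was at 22.8, 19.8 and 21.5 CPM in the CD133+Nestin+ libraries, at 24.3, 22.8 and 28.7 CPM in the Nestin+ libraries, and at 15.8, 10.9 and 13.3 CPM in the CD133+ libraries. The lowest library of either reporter-positive group lay above the highest CD133+ library. The Nestin+ to CD133+ ratio was 1.53, 2.08 and 2.17 in sorts 1, 2 and 3. The log2 change had a 95% interval of 0.34 to 1.42 and an adjusted p of 0.0408 in limma, and 0.0177 with the block. The call was close to the threshold: of the 9 fits with a library dropped it was kept in 1, the fit without CD133+Nestin+ replicate 2. The adjusted p was 0.0545 and 0.0640 without CD133+Nestin+ replicates 1 and 3, 0.0972, 0.0919 and 0.142 without Nestin+ replicates 1, 2 and 3, and 0.0504, 0.161 and 0.117 without CD133+ replicates 1, 2 and 3, while the log2 change stayed between 0.75 and 1.00. Hey2 had, for CD133+Nestin+ against CD133+ cells, a log2 change of 0.65 ± 0.25 (SE, 95% interval 0.11 to 1.20) and an adjusted p of 0.276, and for CD133+Nestin+ against Nestin+ cells one of -0.23 ± 0.25 (SE).

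Hey1, a close relative of Hey2 that acts with Hes proteins, was at 44.2, 37.9 and 44.9 CPM in CD133+Nestin+ cells, at 58.4, 42.8 and 45.2 CPM in Nestin+ cells and at 26.9, 32.5 and 40.9 CPM in CD133+ cells. Its Nestin+ libraries lay above all CD133+ libraries, and its CD133+Nestin+ libraries overlapped both other groups. The log2 change between Nestin+ and CD133+ cells was 0.54 ± 0.24 (SE), with an adjusted p of 0.211. Hes1, the effector that also answers to signals other than Notch, was at 36.2, 30.4 and 43.8 CPM in CD133+Nestin+ cells, at 36.5, 30.6 and 43.2 CPM in Nestin+ cells and at 34.4, 19.1 and 54.2 CPM in CD133+ cells. Its 3 groups overlapped throughout, with means of 36.8 ± 6.72, 36.8 ± 6.32 and 35.9 ± 17.6 CPM in CD133+Nestin+, Nestin+ and CD133+ cells (SD, n = 3 each). The Hes1 log2 change between Nestin+ and CD133+ cells was 0.14 ± 0.35 (SE), with a 95% interval from -0.63 to 0.90, while that of Hes5 began at 1.24. Hes1 and Hes5 were not tested against each other.

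**Figure D2:**
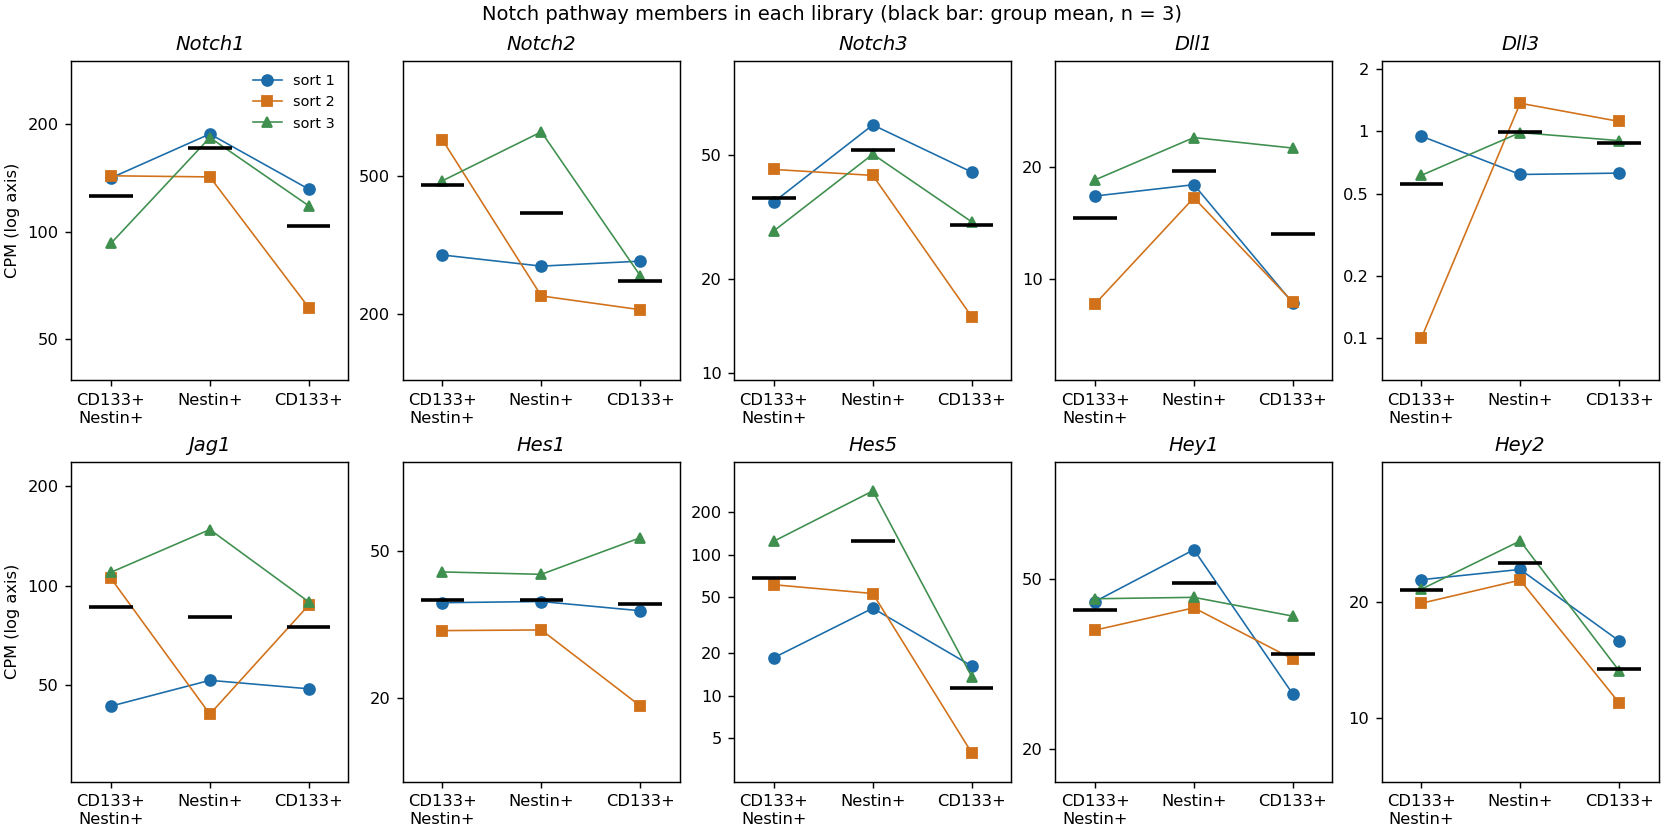
CPM (log axes, a range of its own in each panel) of the 10 members in CD133+Nestin+, Nestin+ and CD133+ libraries; each line joins the libraries of 1 sort and black bars are group means (n = 3). Hes5 spans 3.94 to 284 CPM over the 9 libraries, whereas Hey2 spans 10.9 to 28.7 CPM with every CD133+ library at the bottom.

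Among the receptors none was called in any comparison. Notch1, the receptor best known for keeping neural stem cells undifferentiated, was at 141, 143 and 92.7 CPM in CD133+Nestin+ cells, at 188, 142 and 183 CPM in Nestin+ cells and at 132, 61.3 and 118 CPM in CD133+ cells. Its lowest Nestin+ library was above its highest CD133+ library. The log2 change between Nestin+ and CD133+ cells was 0.78 ± 0.32 (SE, 95% interval 0.07 to 1.49), with an adjusted p of 0.168. Notch3, the receptor of vascular mural cells that progenitors also carry, was at 35.4, 44.9 and 28.6 CPM in CD133+Nestin+ cells, at 62.3, 43.0 and 50.2 CPM in Nestin+ cells and at 44.0, 15.2 and 30.5 CPM in CD133+ cells. The ranges of Nestin+ and CD133+ cells overlapped through 1 library of each, and the log2 change was 0.88 ± 0.36 (SE, 95% interval 0.09 to 1.67), with an adjusted p of 0.163. Within each sort Nestin+ cells were higher, by a ratio of 1.43, 2.32 and 1.55 for Notch1 and of 1.42, 2.83 and 1.65 for Notch3 in sorts 1, 2 and 3.

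Notch2, a receptor linked to quiescence of adult neural stem cells, had another pattern. It was at 296, 635 and 484 CPM in CD133+Nestin+ cells, at 275, 225 and 670 CPM in Nestin+ cells and at 284, 206 and 258 CPM in CD133+ cells. Every CD133+Nestin+ library was above every CD133+ library, with the lowest of them only just so, and of the Nestin+ libraries those of sorts 1 and 2 lay within the CD133+ range and that of sort 3 above it. The log2 change between CD133+Nestin+ and CD133+ cells was 0.86 ± 0.42 (SE, 95% interval -0.07 to 1.79), with an adjusted p of 0.442, and it was 0.61 without CD133+Nestin+ replicate 2. Between Nestin+ and CD133+ cells it was 0.49 ± 0.42 (SE), with an adjusted p of 0.587.

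None of the ligands among the members was called. Dll1, a Delta ligand shown by differentiating neural cells, was at 16.7, 8.60 and 18.4 CPM in CD133+Nestin+ cells, at 17.9, 16.5 and 23.9 CPM in Nestin+ cells and at 8.65, 8.70 and 22.4 CPM in CD133+ cells. Its groups overlapped, and the log2 change between Nestin+ and CD133+ cells was 0.64 ± 0.41 (SE, 95% interval -0.26 to 1.53). Jag1, a ligand of the Jagged class, was at 43.1, 105 and 110 CPM in CD133+Nestin+ cells, at 51.6, 40.8 and 148 CPM in Nestin+ cells and at 48.7, 87.2 and 89.2 CPM in CD133+ cells. It varied more within each group than between the group means of 86.0 ± 37.2, 80.1 ± 58.9 and 75.0 ± 22.9 CPM in CD133+Nestin+, Nestin+ and CD133+ cells (SD, n = 3 each). Its log2 change between Nestin+ and CD133+ cells was -0.09 ± 0.50 (SE), an interval from -1.20 to 1.02. Dll3, a Delta protein that does not activate receptors on neighbouring cells, was the lowest member. It was at 0.949, 0.0995 and 0.612 CPM in CD133+Nestin+ cells, at 0.618, 1.37 and 0.987 CPM in Nestin+ cells and at 0.628, 1.12 and 0.902 CPM in CD133+ cells. The lowest of these, in CD133+Nestin+ replicate 2, is the worth of 3 reads, and Dll3 was the 1 member removed by the filter of at least 1 CPM in at least 3 libraries.

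With 3 libraries against 3, an exact two-sided permutation test of a single gene cannot give a p under 0.1. That smallest value was reached by Notch1, Hes5, Hey1 and Hey2 between Nestin+ and CD133+ cells, by Notch2, Hes5 and Hey2 between CD133+Nestin+ and CD133+ cells, and by no member between CD133+Nestin+ and Nestin+ cells. These are the members tested whose groups did not overlap: 4 of 9 higher in Nestin+ than in CD133+ cells, against 11.8% of all genes, and 3 of 9 with CD133+Nestin+ above CD133+ cells, against 6.56%. None was lower without overlap, against 21.1% and 10.9% of all genes. CD133+Nestin+ and Nestin+ cells were apart for 0 members, against 11.1% of all genes higher and 6.21% lower. The median log2 change of the 9 members was 0.64 between Nestin+ and CD133+ cells and 0.35 between CD133+Nestin+ and CD133+ cells, beside -0.02 and -0.06 over all genes. Both comparisons share the CD133+ libraries. As the members were listed with earlier results of these data known, these counts and medians are descriptive. In CD133+Nestin+ against Nestin+ cells the median was -0.23, beside -0.04 over all genes.

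Levels of different genes were compared per kilobase of merged exons. Hes5 had the highest mean in CD133+Nestin+ cells, 50.1 ± 39.3 CPM per kb, and in Nestin+ cells, 92.7 ± 100.3 CPM per kb, but ranked 5 of 10 in CD133+ cells at 8.29 ± 4.77 CPM per kb (SD, n = 3 each). Notch2 followed at 43.7 ± 15.8 and 36.2 ± 22.6 CPM per kb in CD133+Nestin+ and Nestin+ cells and led in CD133+ cells at 23.1 ± 3.70 CPM per kb. Over the CD133+Nestin+ libraries Hes5 ran from 13.7 to 91.7 CPM per kb, below and above the Notch2 range of 27.4 to 58.9 CPM per kb. After them came Hes1 at 18.1, 18.0 and 17.6 CPM per kb, Jag1 at 14.8, 13.7 and 12.9 CPM per kb, and Hey1 at 13.0, 14.9 and 10.2 CPM per kb in CD133+Nestin+, Nestin+ and CD133+ cells. Notch1 stood at 8.84, 12.0 and 7.28 CPM per kb, Notch3 at 4.48, 6.41 and 3.70 CPM per kb, Hey2 at 4.66, 5.50 and 2.91 CPM per kb and Dll1 at 3.46, 4.61 and 3.14 CPM per kb in the same order of cells, with Dll3 last at 0.194, 0.348 and 0.310 CPM per kb. Most neighbours in this order overlapped between libraries. The ranges were apart in CD133+Nestin+ cells for Notch2 over Hes1, Hey1 over Notch1, Notch1 over Hey2 and Dll1 over Dll3, in Nestin+ cells for Notch1 over Notch3 and Dll1 over Dll3, and in CD133+ cells for Hey2 over Dll3. Of the summed level of the 3 receptors per kb, Notch2 made up 54.9% to 81.7% in each of the 9 libraries, Notch1 11.9% to 28.4% and Notch3 6.43% to 16.6%.

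**Figure D3:**
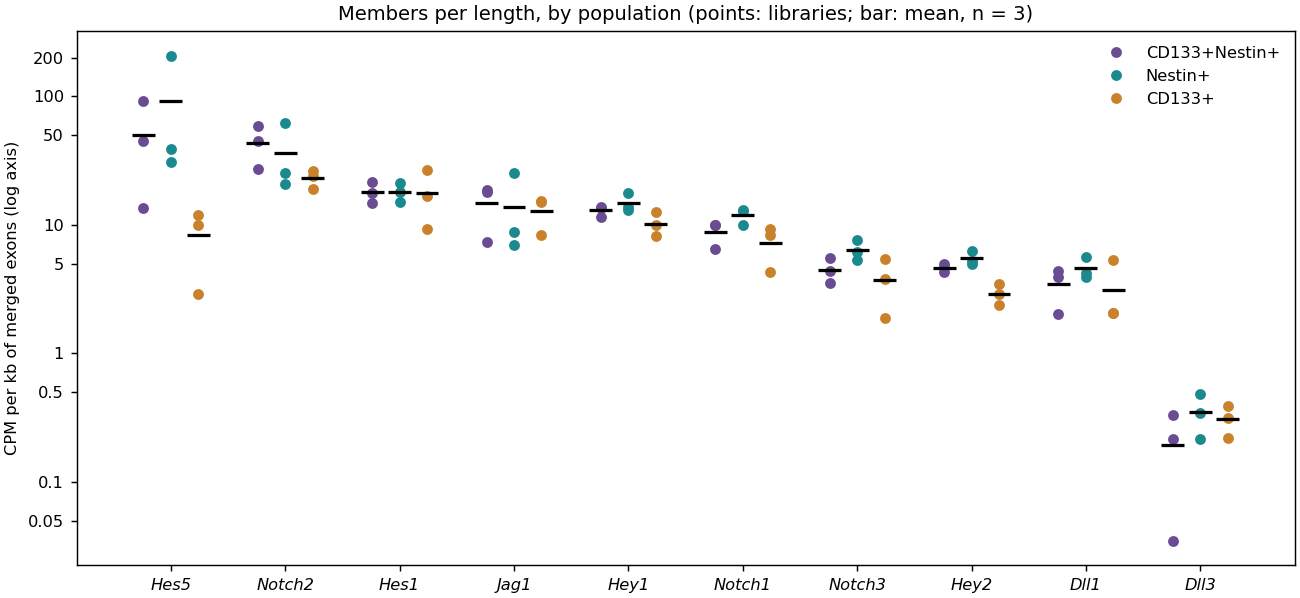
Level of each member per length (CPM per kb of merged exons, log axis) in CD133+Nestin+, Nestin+ and CD133+ cells; points are libraries and bars are means (n = 3). Hes5 is the highest mean in both reporter-positive groups at 50.1 and 92.7 CPM per kb and in the middle of the order in CD133+ cells at 8.29 CPM per kb.

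The exons of 5 members share bases with those of another gene in the GENCODE M21 annotation. They are Notch1 (2:26457903-26516663, minus strand) with 0610009E02Rik and Gm13568, Notch3 (17:32120820-32166852, minus) with Gm17276, Dll1 (17:15367354-15376872, minus) with A930024N18Rik and Hes5 (4:154960923-154962371, plus) with Gm20421, all on the opposite strand, and Notch2 (3:98013527-98150361, plus) with Gm42820 on the same strand. The overlap covers 433 of the 1363 merged exon bases of Hes5, the largest part of any member. It covers 867 of 4219 bases in Dll1, 488 of 8089 in Notch3 and 541 of 10782 in Notch2. In Notch1 it covers 1068 bases with 0610009E02Rik and 414 with Gm13568, of 14232. The use of strand in counting is not stated in the sources at hand, so reads in these stretches cannot be assigned to one gene with certainty. Hes1 (16:30064384-30067796, plus), Hey1 (3:8663359-8667256, minus), Hey2 (10:30832359-30842801, minus), Jag1 (2:137081456-137116644, minus) and Dll3 (7:28293553-28302238, minus) share no exon bases with another gene.

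Beyond the 10 members, 62 further pathway genes were listed, of which 54 were in the table and 53 were tested. Between Nestin+ and CD133+ cells 1 of the 53 rose, the coactivator Maml2, and 2 fell, the ligands Dll4 and Jag2, against 2.45% of all genes higher and 9.42% lower. An unadjusted p under 0.05 in limma was reached by 12 of the 53, against 23.0% of all genes. Between CD133+Nestin+ and CD133+ cells Dll4 and Jag2 fell and 0 rose, against 2.12% of all genes lower and 0.297% higher, and 10 of the 53 had an unadjusted p under 0.05 in limma, against 12.6%. Between CD133+Nestin+ and Nestin+ cells 0 were called and 4 had an unadjusted p under 0.05, against 13.2% of all genes. The median log2 change of the 53 genes was 0.09, -0.14 and -0.12 in the 3 comparisons in that order. Without overlap of the groups, 8 of the 53 were higher and 7 lower in the first comparison, against 11.8% and 21.1% of all genes. In the second 4 were higher and 8 lower, against 6.56% and 10.9%, and in the third 1 and 5, against 11.1% and 6.21%. By group, the calls were 2 of the 4 other receptors and ligands and 1 of the 14 genes of the nuclear complex and co-repressors. None was among the 15 genes of receptor glycosylation and cleavage, the 13 of endocytosis and ubiquitin ligases, the 5 other Hes and Hey genes and partners or the 2 proneural genes.

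Dll4, the ligand of sprouting endothelium, was at 5.05, 9.74 and 5.10 CPM in CD133+Nestin+ cells, at 7.35, 5.83 and 11.9 CPM in Nestin+ cells and at 21.8, 16.2 and 34.9 CPM in CD133+ cells. Jag2, a second Jagged ligand, was at 2.02, 0.133 and 2.42 CPM in CD133+Nestin+ cells, at 0.138, 0.848 and 0.894 CPM in Nestin+ cells and at 6.39, 10.6 and 9.14 CPM in CD133+ cells. For both ligands every CD133+ library was above every other library. Between Nestin+ and CD133+ cells the log2 change was -1.42 ± 0.39 (SE) for Dll4, with an adjusted p of 0.0356, and -2.59 ± 0.44 (SE) for Jag2, with an adjusted p of 0.00317. Between CD133+Nestin+ and CD133+ cells it was -1.72 ± 0.39 (SE) for Dll4, with an adjusted p of 0.0441, and -2.07 ± 0.44 (SE) for Jag2, with an adjusted p of 0.0347. The Nestin+ call held in all 9 fits without 1 library for Jag2 and in 5 for Dll4, whose adjusted p was 0.0986 and 0.148 without Nestin+ replicates 1 and 2 and 0.0772 and 0.156 without CD133+ replicates 1 and 3. It was 0.0570 for Dll4 with median centring and 0.0565 with quantile normalization. The CD133+Nestin+ call held in 4 of 9 fits for Jag2, which lost it without Nestin+ replicate 2 or 3 or any CD133+ replicate (adjusted p 0.0626 to 0.165). For Dll4 it held only without CD133+Nestin+ replicate 2 (0.0225), with an adjusted p of up to 0.227 in the other fits. That call was also lost for Jag2 with a pseudocount of 0.1 (0.181) or 2 groups alone (0.103), and for Dll4 with these or another scaling or no filter (0.0554 to 0.0920). The authors' deposited false discovery rate between Nestin+ and CD133+ cells was 0.0521 for Dll4 and 0.0444 for Jag2. Between CD133+Nestin+ and CD133+ cells it was 0.0847 for Dll4 and 0.276 for Jag2, so neither ligand passed 0.05 there.

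Like these 2 ligands, markers of vessel cells and of some other cell types were called lower than in CD133+ cells. All 5 endothelial markers in the table, of 9 listed, were called lower in Nestin+ and in CD133+Nestin+ cells than in CD133+ cells, and their summed level was 27.0 to 44.6 CPM in CD133+Nestin+, 15.4 to 25.5 CPM in Nestin+ and 451 to 887 CPM in CD133+ libraries. The tight junction gene Cldn5, a defining endothelial marker, was at 13.7, 1.95 and 9.07 CPM in CD133+Nestin+ cells, at 1.03, 0.130 and 0.0618 CPM in Nestin+ cells and at 187, 207 and 321 CPM in CD133+ cells. All 8 ependymal markers were also called lower in Nestin+ than in CD133+ cells, and 2 of the 8 in CD133+Nestin+ cells, with sums of 1040 to 1483 CPM in CD133+Nestin+, 197 to 251 CPM in Nestin+ and 1378 to 2750 CPM in CD133+ libraries. Microglia markers were called lower than in CD133+ cells in 8 of 8 cases in Nestin+ and in 7 of 8 in CD133+Nestin+ cells. For erythroid markers it was 5 of 5 and 4 of 5, and for mural markers 4 of 5 in both. Called higher in Nestin+ cells were oligodendrocyte precursor (6 of 7), neuronal lineage (4 of 8) and tanycyte and hypothalamic markers (4 of 6). In CD133+Nestin+ cells 1 of 7 oligodendrocyte precursor markers was. Between CD133+Nestin+ and Nestin+ cells neither ligand was called. There all 8 ependymal markers and 1 endothelial marker were called higher in CD133+Nestin+ cells. Called lower there were 3 oligodendrocyte precursor markers and 1 tanycyte and hypothalamic marker. The part of these cell types in the values of Dll4 and Jag2 was not tested.

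Maml2, which joins RBPJ and the cleaved receptor on DNA, was at 194, 260 and 273 CPM in CD133+Nestin+ cells, at 249, 247 and 358 CPM in Nestin+ cells and at 128, 115 and 181 CPM in CD133+ cells. Both reporter-positive groups lay above every CD133+ library. The log2 change was 1.01 ± 0.28 (SE) between Nestin+ and CD133+ cells, with an adjusted p of 0.0383, and 0.79 ± 0.28 (SE) between CD133+Nestin+ and CD133+ cells, with an adjusted p of 0.240, or 0.0417 with the sort number as a block. The Nestin+ call held in 3 of the 9 fits without 1 library and was lost without CD133+Nestin+ replicate 3, any Nestin+ replicate, or CD133+ replicate 1 or 2 (adjusted p 0.0596 to 0.165). With the block the calls between Nestin+ and CD133+ cells came to 5 of 53, by the addition of Dner, a Delta-like surface protein of neurons (adjusted p 0.0104), and Neurl1a, a ubiquitin ligase (0.0469), which were named after their values were seen.

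RBPJ itself, the DNA-binding partner of all Notch receptors, did not pass the test. Rbpj was at 36.3, 18.8 and 36.6 CPM in CD133+Nestin+ cells, at 41.3, 38.5 and 39.2 CPM in Nestin+ cells and at 44.4, 45.9 and 49.9 CPM in CD133+ cells, an order of groups without overlap but with log2 changes of -0.23 ± 0.27 (SE) for Nestin+ and -0.65 ± 0.27 (SE) for CD133+Nestin+ against CD133+ cells. Over all genes 21.1% were lower without overlap in Nestin+ and 10.9% in CD133+Nestin+ than in CD133+ cells. Between CD133+Nestin+ and Nestin+ cells 6.21% were. Lfng, a glycosyltransferase that tunes which ligands a receptor answers to, was at 25.5, 12.1 and 18.9 CPM in CD133+Nestin+ cells, at 33.0, 27.2 and 32.1 CPM in Nestin+ cells and at 32.4, 18.1 and 15.9 CPM in CD133+ cells. The Nestin+ libraries of Lfng lay above its CD133+Nestin+ libraries, with a log2 change of -0.73 ± 0.34 (SE) between CD133+Nestin+ and Nestin+ cells and an adjusted p of 0.389.

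**Figure D4:**
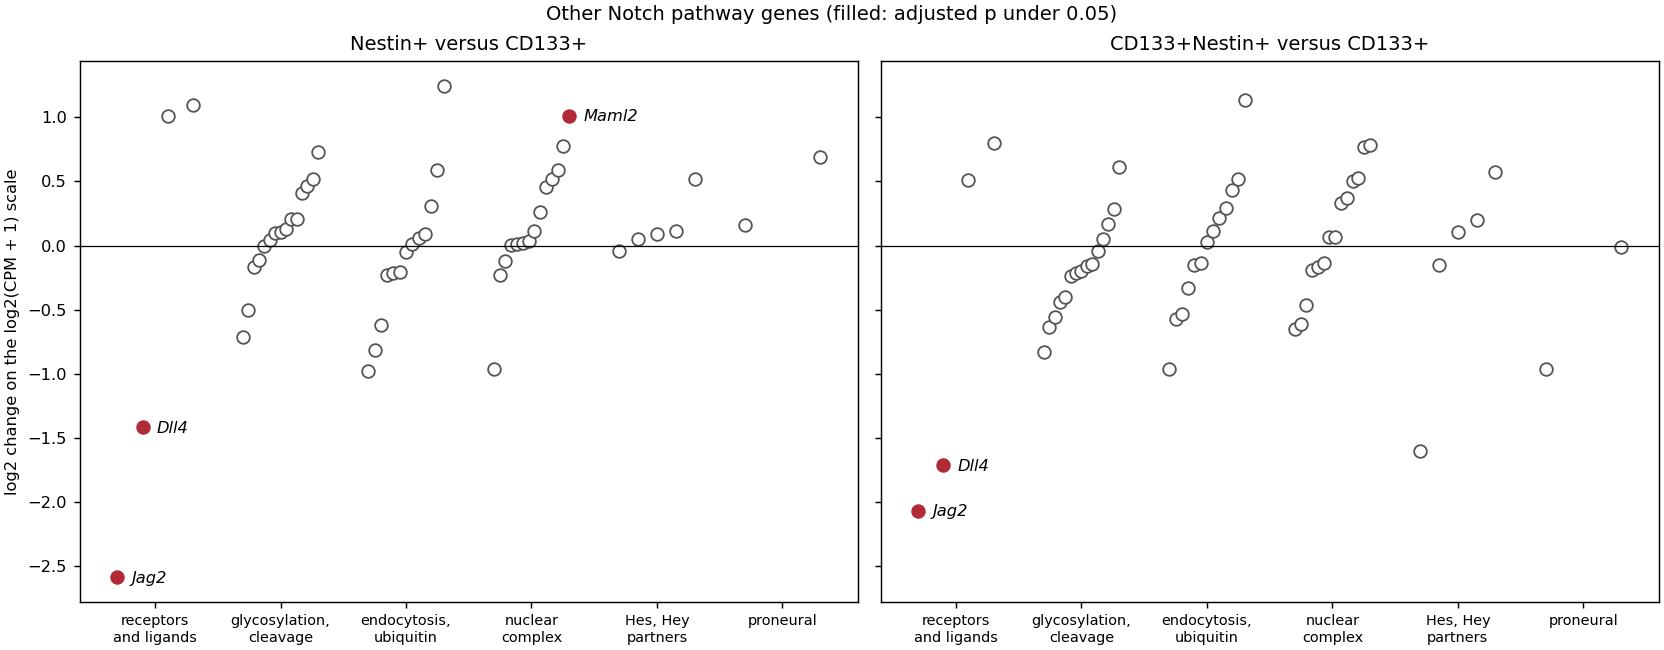
Log2 change, on the log2(CPM + 1) scale, of each of the 53 other pathway genes tested, by functional group, for Nestin+ versus CD133+ cells (left) and CD133+Nestin+ versus CD133+ cells (right); filled points have an adjusted p under 0.05. Jag2 at -2.59 and -2.07 and Dll4 at -1.42 and -1.72 are called in both panels, and Maml2 at 1.01 in the left one.

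Markers of other cell types were also called between Nestin+ and CD133+ cells, where Hes5 and Hey2 were called. Of the oligodendrocyte precursor markers, 6 of 7 were called higher in Nestin+ than in CD133+ cells, with sums of 535, 180 and 149 CPM in the CD133+Nestin+ libraries, 1191, 1244 and 646 CPM in the Nestin+ libraries and 173, 87.6 and 198 CPM in the CD133+ libraries. Over sorts 1, 2 and 3 of CD133+Nestin+ cells these sums fell, while Hes5 was at 18.6, 61.4 and 125 CPM. In Nestin+ cells the sum was lowest in sort 3, where Hes5 was highest (284 CPM). In CD133+ cells both were lowest in sort 2. Of the neuronal lineage markers 4 of 8 were called higher in Nestin+ than in CD133+ cells, and 0 of 8 in CD133+Nestin+ cells. Their sums were 482 to 754, 707 to 1004 and 174 to 356 CPM in CD133+Nestin+, Nestin+ and CD133+ libraries. Sox11 made up most of each sum, at 297 to 642, 448 to 806 and 141 to 275 CPM in the same order. Of the tanycyte and hypothalamic markers 4 of 6 were called higher in Nestin+ than in CD133+ cells, with sums of 130 to 232, 345 to 424 and 77.2 to 98.3 CPM. Of the radial glia and astrocyte markers 0 of 8 were called in any comparison, with sums of 4455 to 9883, 8019 to 14400 and 2404 to 7510 CPM in the same order of cells. All 8 microglia markers were called lower in Nestin+ than in CD133+ cells, with sums of 83.0 to 379, 77.6 to 152 and 885 to 2707 CPM. Mural markers were called lower in 4 of 5 cases (8 were listed), with sums of 63.0 to 153, 29.1 to 36.4 and 389 to 1023 CPM, and erythroid markers in 5 of 5, with sums of 60.6 to 118, 24.4 to 344 and 783 to 1537 CPM. No marker in the table was below 3 reads in every library of a group. The part of these cell types in the levels of Hes5 and Hey2 was not tested.

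The genes whose profile over the 9 libraries was most like that of each member were sought among 9382 genes with a mean of at least 10 CPM, by the root mean square difference of centred log2(CPM + 1) values. Notch1 and Notch3 were each other's nearest gene, at a difference of 0.15, with Tmod2 (0.19) and Zcchc24 (0.19) next for Notch1 and Zcchc24 (0.21) and Ubash3b (0.22) next for Notch3. Notch2 was nearest to Nup98 (0.11), Pdcd4 (0.14) and P3h4 (0.17). Hey2 was nearest to Arnt2 (0.11), Hdac11 (0.11) and Ankmy2 (0.15), and Hey1 to Pigh (0.12), Gtpbp8 (0.13) and H2afy2 (0.14). Hes1 was nearest to Nek6 (0.19), Cdkn1c (0.19) and Tceal9 (0.21), Dll1 to Rnf122 (0.19), Dcbld1 (0.21) and Rpusd1 (0.23), and Jag1 to Socs2 (0.24), Acsl3 (0.24) and Mtmr2 (0.25). Hes5 was nearest to Chst2 (0.64), Phyhipl (0.79) and Insig1 (0.82); the difference grows with the spread of the member itself, which was 1.67 for Hes5 against 0.29 to 0.63 for the other members named here. Such likeness describes 9 libraries that share their depth, sorts and groups.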

How the data were processed

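RNA from 9 samples was sequenced, 3 libraries per sorted population, and groups were taken from the labelled cell population. Per the submitters' processing notes, which give neither roles nor order, the tools were STAR 2.5.3a, Partek 8.0, bcl2fastq and limma and the build was mm10. The counting of reads per gene, and its use of strand, is not stated in the sources at hand. The deposited table held values taken as CPM from their steps, and an offset of 0.0001 was inferred in the same way. Only 43.3% to 56.9% of low values were whole reads within a tolerance of 0.02 reads, so no count test was run. For each pair of groups the authors' other deposited table held a ratio of group means, a signed fold change, a p-value and a false discovery rate, per the file headers. Its columns of mean signal per group were not used, and its ratios and p-values are given only as the authors' result.

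The filter asked for 1 CPM in any 3 libraries and kept 16143 genes of the table, removing 2186. On log2(CPM + 1), limma 3.58.1 (R 4.3.3) fitted 3 group means with trended, robust variances and 6 residual degrees of freedom, and p-values were adjusted by the Benjamini-Hochberg method over all genes with a threshold of 0.05. Single-gene permutation tests were enumerated under Python 3.11.15, and figures used matplotlib 3.10.9. The procedure was run on simulated data whose noise was independent between libraries. That run does not cover the shared deviations of same-numbered libraries, and its outcome is not given here. Exon lengths and positions come from GENCODE M21 on GRCm38, the build mm10, in which 18219 symbols were found. Deviations from group means correlated at 0.204 to 0.730 in the 9 library pairs with the same sort number and at -0.526 to 0.314 in the 18 others. Same-numbered libraries were therefore treated as pairs in the ratios within sorts and in the fit with a block. The labels do not state this pairing, and the main fit and the permutation tests did not use it. A block for the sort number is an alternative, given where it changes a call or a count. Other alternatives were a pseudocount of 0.1, no filter, median centring, quantile normalization, leaving out each library, a plain prior (without trend or robust fit) and 2 groups alone. The members and gene lists were chosen with earlier results of these data known. All members were named, with other pathway genes past the threshold (up to 5 per comparison and functional group), Rbpj and Lfng, the 3 genes most like each member, and Prom1 and Nes. The nearest genes of Dll3, which failed the filter, are not given. A result for 1 further gene of the naming rule is not reported here.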

Additional observations from a re-analysis of the deposited data

How the results depend on the processing

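Under the 7 alternatives other than leaving out a library, the members called between Nestin+ and CD133+ cells stayed at 2, Hes5 with adjusted p-values of 0.00554 to 0.0444 and Hey2 with 0.0177 to 0.0445, and the other comparisons stayed at 0. Leaving out 1 library gave 0 to 2 members. With the replicate block the calls were 5 of the other pathway genes between Nestin+ and CD133+ cells (2 higher, 3 lower) in place of 3, and over all genes 3094 in place of 1915 there, 776 in place of 390 for CD133+Nestin+ against CD133+ cells, and 983 in place of 505 for CD133+Nestin+ against Nestin+ cells. It changed no call of a member. Fits without 1 library gave 1043 to 2764, 97 to 472 and 173 to 663 genes in these 3 comparisons, and 1 to 5, 0 to 2 and 0 other pathway genes. The 2 pathway calls between CD133+Nestin+ and CD133+ cells came to 0 with a pseudocount of 0.1 and with 2 groups alone, and to 1 with no filter, median centring or quantile normalization; with 2 groups alone 198 genes were called there. Jag1 in Nestin+ versus CD133+ cells turned to 0.0437 with median centring and 0.0105 with quantile normalization, and Hes1 in CD133+Nestin+ versus Nestin+ cells to -0.0049 and -0.0435. Without 1 library the log2 change crossed 0 for Jag1 (-0.65 to 0.27) and Hes1 (-0.24 to 0.49) in Nestin+ versus CD133+ cells. It did so for Notch1 (-0.0143 to 0.53), Notch3 (-0.039 to 0.70), Dll1 (-0.0175 to 0.62), Jag1 (-0.15 to 0.56), Hes1 (-0.24 to 0.49) and Lfng (-0.45 to 0.0867) in CD133+Nestin+ versus CD133+ cells, and for Jag1 (-0.14 to 0.78), Hes1 (-0.13 to 0.13) and Hes5 (-1.32 to 0.16) in CD133+Nestin+ versus Nestin+ cells. None of these was called, and the cause was not tested. Depth limits Dll3 in CD133+Nestin+ replicate 2, at 3 reads, and Jag2 in CD133+Nestin+ replicate 2 (0.133 CPM) and Nestin+ replicate 1 (0.138 CPM).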
